A study of Homo sapiens with 9 samples.

Results

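The BCL2 family was followed through 10 genes chosen by name: the survival genes BCL2, BCL2L1, BCL2L2 and MCL1, the effectors BAX and BAK1, and the BH3-only genes BID, BCL2L11, BBC3 and PMAIP1. All 10 were among the 61544 genes listed, and all 10 passed the filter on low counts that kept 14727 genes for testing. RNA came from HMC3 cells, a wild-type line of human microglia made immortal by the SV40 large T antigen, a viral protein known to bind p53 and RB. Cells had been kept for 6 days in DMSO (VEH), in SLO ½ (5 µM SBI-0206965, 0.5 µM O-151 and 0.5 µM Lopinavir) or in SLO (10, 1 and 1 µM of the same compounds), with 3 libraries per group. SBI-0206965 inhibits the autophagy kinase ULK1, O-151 inhibits a DNA glycosylase, and Lopinavir interferes with the making of Lamin A. All 9 libraries were from this 1 line, and the labels do not say whether they came from separate cultures, so p-values measure the spread between these libraries, which may be technical.

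Proteins of this family decide whether the outer mitochondrial membrane stays intact. BAX and BAK1 can form pores in it that release cytochrome c and start the caspase cascade, and BCL2 and its survival relatives hold BAX and BAK1 in check. BH3-only proteins carry stress signals to the membrane, where they occupy the groove of the survival proteins or activate BAX and BAK1 directly, and cells that have entered senescence are known for relying on survival members of the family.

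The libraries held 14834295 to 19674841 reads on genes (median 16443926). Mitochondrial transcripts took 1.30 to 1.61% of these for VEH, 2.30 to 2.86% for SLO ½ and 2.51 to 3.12% for SLO. Of 12 microglia markers 3 passed the filter, and P2RY12 and C1QA had 0 counts in all 9 libraries and AIF1, CX3CR1 and SPI1 at most 1. The 8 fibroblast and mural markers summed to 1419 to 1652 TPM (a transcript measure scaled for gene length and depth) for VEH, 1719 to 1753 for SLO ½ and 2064 to 2164 for SLO, mostly COL1A1, while COL3A1, DCN and LUM stayed under 0.5 TPM. Within that list PDGFRB lay at 56.1 to 64.0 TPM for VEH, 39.9 to 43.2 for SLO ½ and 47.8 to 51.5 for SLO, and ACTA2 at 3.81 to 4.48, 29.6 to 31.4 and 67.5 to 79.2, so the sum does not stand for each marker. These shifts moved with the groups, and their part in the results was not tested.

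Against VEH, 7 of the 10 genes rose in SLO and none fell, beside 32.9% of all tested genes that rose and 32.1% that fell. BBC3, BCL2L11 and PMAIP1 rose most, by 3.62-fold, 2.94-fold and 2.69-fold, and BAX, BAK1, BCL2L1 and MCL1 rose by 1.16-fold to 1.40-fold. In SLO ½ 7 of 10 also rose and none fell, beside 26.7% and 25.3% of all tested genes, with BID called in place of MCL1. No member fell at an unadjusted p below 0.05 in edgeR either, and DESeq2 gave 0 falls at both doses. Changes are log2 fold changes of read counts scaled to library size (CPM) from edgeR's quasi-likelihood test, called at a Benjamini-Hochberg adjusted p below 0.05 over all 14727 genes. The median log2 fold change of the 10 genes was 0.46 in SLO, where that of all tested genes was 0.014, and 0.32 in SLO ½, where it was 0.015. Both comparisons share the 3 VEH libraries, so they are not independent of each other. In bulk RNA, a change in the RNA of each cell cannot be told apart from a change in the mix of cells.

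**Figure D1:**
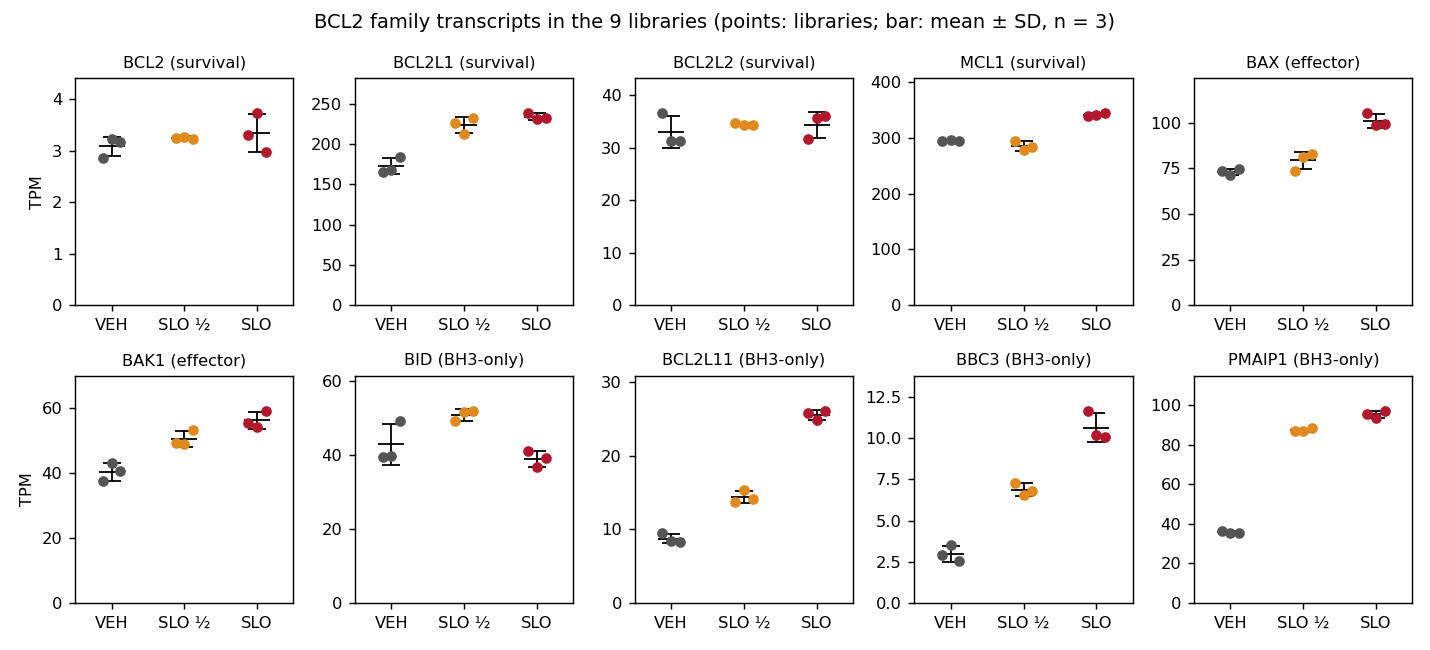
TPM of each gene (vertical axis, starting at 0 and scaled separately for each gene) in the 3 VEH, 3 SLO ½ and 3 SLO libraries, with points for libraries and bars for the mean ± SD. PMAIP1 went from 35.3 to 36.4 TPM in VEH to 93.8 to 97.3 in SLO, while the ranges of BCL2 in VEH and SLO overlapped.

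MCL1 (chr1:150560895-150579738, GRCh38), whose short-lived protein holds BAK1 and BCL2L11, had the highest level of the family in every group. Its level was 295, 296 and 294 TPM in VEH, 294, 278 and 283 in SLO ½, and 340, 340 and 344 in SLO. The SLO libraries were all above the other 6, and those of VEH and SLO ½ overlapped. MCL1 thus rose only in SLO, by 0.22 on the log2 scale (SE 0.0374, adjusted p = 8.41e-06), and its change in SLO ½ was -0.0064 with a 95% interval of -0.083 to 0.070. The difference between doses was itself tested and was 0.23 (SE 0.0374, adjusted p = 1.49e-05).

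BCL2L1 (chr20:31664452-31723989), the gene of BCL-XL, was the next in level. It read 165, 168 and 183 TPM in VEH, 226, 212 and 232 in SLO ½, and 238, 231 and 232 in SLO. Both treated groups lay above VEH and overlapped each other. The rise was 0.42 in SLO ½ (SE 0.0425, adjusted p = 2.47e-09) and 0.45 in SLO (SE 0.0426, adjusted p = 2.5e-10), and the doses differed by 0.030 with a 95% interval of -0.055 to 0.12. MCL1 therefore separated the doses at this depth and BCL2L1 did not.

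BCL2L2 (chr14:23298790-23311751), which encodes BCL-W, stood at 36.6, 31.3 and 31.4 TPM in VEH, 34.8, 34.3 and 34.3 in SLO ½, and 31.6, 35.6 and 36.1 in SLO. Its groups overlapped, and its log2 fold change was 0.065 in SLO (95% interval -0.074 to 0.20, adjusted p = 0.411) and 0.10 in SLO ½ (-0.034 to 0.24, adjusted p = 0.203). The SLO ½ value passed the threshold once VEH replicate 1 was left out (0.18, adjusted p = 0.025). The read-through gene BCL2L2-PABPN1 (chr14:23306833-23326175) shares 815 of the 4840 exon bases of BCL2L2 on the same strand, or 16.8%, and reads falling only there belong to both, so they were not counted for either. It had 2 to 12 counts of its own per library.

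BCL2 itself (chr18:63123346-63320128), the founding member, was among the lowest of the family. It measured 2.87, 3.22 and 3.17 TPM in VEH, 3.25, 3.28 and 3.22 in SLO ½, and 3.31, 3.73 and 2.98 in SLO, from 121 to 171 counts per library. Neither dose gave a call, with 0.13 in SLO (95% interval -0.096 to 0.35, adjusted p = 0.315) and 0.12 in SLO ½ (-0.10 to 0.34, adjusted p = 0.377). A change of the size seen for BCL2L1 lies outside these intervals.

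Added together, the 4 survival genes stood at 503 ± 7.49 TPM in VEH (SD, n = 3), 546 ± 16.5 in SLO ½ and 613 ± 2.57 in SLO. MCL1 supplied 58.6 ± 1.08% of that sum for VEH, 52.2 ± 0.837% for SLO ½ and 55.7 ± 0.263% for SLO. The share of BCL2L1 was 34.2 ± 1.47%, 40.9 ± 0.946% and 38.1 ± 0.656%. The ranges of the 3 groups did not overlap for either gene, with SLO between the others. BCL2L2 made up 6.59 ± 0.656%, 6.32 ± 0.163% and 5.62 ± 0.401%, and BCL2 under 1% throughout. In raw counts, which favour longer transcripts, the share of MCL1 was 66.6%, 60.8% and 64.1%, in the same order of groups.

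**Figure D2:**
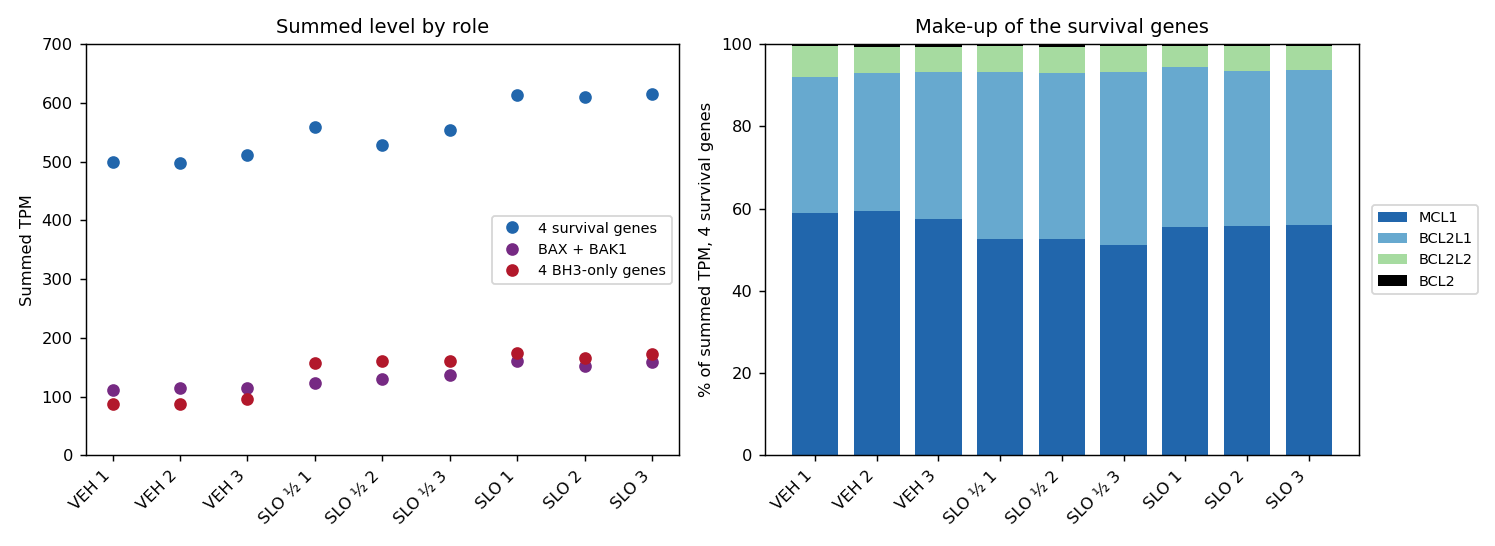
Left, summed TPM of the survival, effector and BH3-only genes in each library (vertical axis from 0). Right, the percentage of the survival sum that each survival gene supplied, where MCL1 made up 57.4 to 59.4% in VEH and 51.2 to 52.7% in SLO ½.

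BAX (chr19:48954815-48961798), a cytosolic effector that moves to mitochondria on activation, stood at 73.8, 71.3 and 74.6 TPM in VEH, 73.8, 81.3 and 83 in SLO ½, and 105, 98.7 and 99.2 in SLO. The SLO libraries were above all others, while SLO ½ replicate 1 was the lowest of its group and within the VEH range. BAX rose by 0.47 in SLO (SE 0.0561, adjusted p = 1.99e-08) and by 0.32 from SLO ½ to SLO (SE 0.0551, adjusted p = 3.15e-05). The rise of 0.16 in SLO ½ (SE 0.0572, adjusted p = 0.0226) lost its call under 8 of 16 alternatives, with DESeq2 (adjusted p = 0.0742) and without VEH replicate 2 (0.0855), SLO ½ replicate 2 (0.117) or SLO ½ replicate 3 (0.106) among them.

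BAK1 (chr6:33572547-33580293), the effector that sits in the mitochondrial membrane, read 37.5, 42.9 and 40.5 TPM in VEH, 49.0, 49.0 and 53.3 in SLO ½, and 55.3, 54.1 and 59.1 in SLO. The 3 groups did not overlap. It rose in SLO ½ (0.37, SE 0.0718, adjusted p = 9.46e-05) and in SLO (0.49, SE 0.0716, adjusted p = 8.82e-07), and the step between doses was 0.12 with a 95% interval of -0.020 to 0.26 (adjusted p = 0.169). BAX and BAK1 together reached 114 ± 1.93 TPM for VEH, 130 ± 6.70 for SLO ½ and 157 ± 3.99 for SLO. Per 100 TPM of survival genes that was 22.6 ± 0.311, 23.8 ± 1.53 and 25.7 ± 0.590.

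PMAIP1 (chr18:59899996-59904305) encodes NOXA, a BH3-only protein that binds MCL1 and promotes its degradation. Its level was 36.4, 35.3 and 35.5 TPM in VEH, 87.2, 87.1 and 88.5 in SLO ½, and 95.6, 93.8 and 97.3 in SLO. The treated libraries were all far above VEH, and those of SLO lay narrowly above SLO ½. PMAIP1 had the smallest p of the 10 genes at both doses, with a rise of 1.34 in SLO ½ (SE 0.0616, adjusted p = 1.02e-16) and 1.43 in SLO (SE 0.0616, adjusted p = 6.35e-18). Between doses the difference was 0.091 (95% interval -0.018 to 0.20, adjusted p = 0.180), but limma on log2(TPM + 1) called it (0.13, adjusted p = 0.0132).

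BCL2L11 (chr2:111119378-111168445), the gene of BIM, which binds every survival member and can activate BAX, followed another pattern. It stood at 9.49, 8.43 and 8.30 TPM in VEH, 13.7, 15.3 and 14.1 in SLO ½, and 25.8, 24.8 and 26.1 in SLO. No 2 groups overlapped, and each dose stood well above the one before. The rise was 0.76 in SLO ½ (SE 0.0819, adjusted p = 6.28e-09) and 1.56 in SLO (SE 0.0763, adjusted p = 1.09e-16), and the step between doses of 0.79 (SE 0.0694, adjusted p = 2.65e-10) was about as large as the step from VEH.

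BBC3 (chr19:47220822-47232766), which encodes the p53 target PUMA, had 2.89, 3.50 and 2.56 TPM in VEH, 7.30, 6.53 and 6.77 in SLO ½, and 11.7, 10.2 and 10.1 in SLO. The 3 groups were apart here too. BBC3 rose by 1.26 in SLO ½ (SE 0.168, adjusted p = 3.27e-07), by 1.86 in SLO (SE 0.157, adjusted p = 2.04e-11) and by 0.60 between doses (SE 0.131, adjusted p = 0.000471). Its standard errors were the widest of the family, and it had 31 to 36 counts per VEH library and 103 to 131 per SLO library.

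BID (chr22:17734138-17774770), whose protein is cut by caspase-8 and so links death receptors to mitochondria, was the only member that rose in SLO ½ and fell from there to SLO. Its level was 39.5, 39.6 and 49.2 TPM in VEH, 49.0, 51.5 and 51.9 in SLO ½, and 41.0, 36.6 and 39.1 in SLO. VEH replicate 3 stood with the SLO ½ libraries and the other VEH libraries with those of SLO. BID rose in SLO ½ (0.28, SE 0.0671, adjusted p = 0.000765) and fell from SLO ½ to SLO (-0.42, SE 0.0682, adjusted p = 1.15e-05). SLO against VEH gave -0.14 (SE 0.0702, adjusted p = 0.0893), which passed the threshold without VEH replicate 1 (-0.19, adjusted p = 0.0237), VEH replicate 2 (-0.20, 0.0215) or SLO replicate 1 (-0.18, 0.0497) and shrank to -0.022 without VEH replicate 3.

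**Figure D3:**
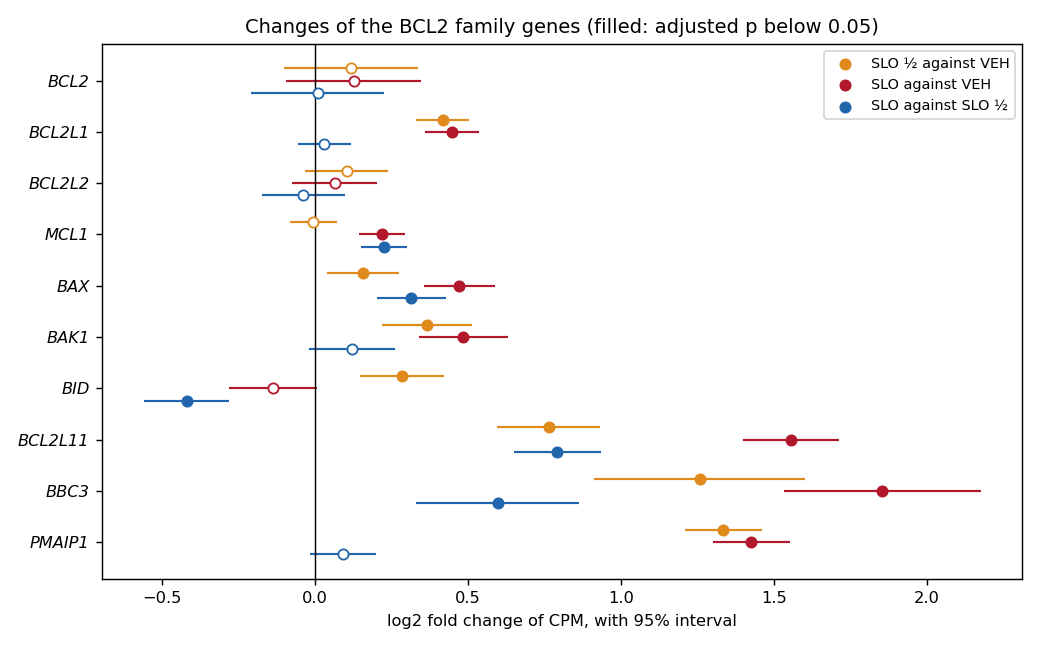
Log2 fold change of CPM (horizontal axis) of the 10 genes in the 3 comparisons, with 95% intervals and filled points for adjusted p below 0.05. PMAIP1 and BCL2L1 were close to their full change in SLO ½, MCL1 moved only in SLO, and BID lay on opposite sides of 0.

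Between the doses 4 genes rose (MCL1, BAX, BCL2L11 and BBC3) and 1 fell (BID), beside 20.8% and 20.3% of all tested genes, and the other 5 were not called. The median difference was 0.11 for the 10 genes and -0.0014 for all tested genes. CPM ranges of the libraries were apart for 7 of 10 genes between SLO and VEH, for 8 between SLO ½ and VEH and for 7 between SLO and SLO ½. Among all tested genes the ranges were apart for 66.7%, 58.3% and 51.0%, so separated ranges were common throughout the transcriptome.

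The 4 BH3-only genes summed to 90.2 ± 4.68 TPM for VEH, 160 ± 2.19 for SLO ½ and 171 ± 4.65 for SLO. Per 100 TPM of survival genes they reached 17.9 ± 0.660, 29.2 ± 1.15 and 27.9 ± 0.680, so VEH was below both treated groups, whose ranges overlapped. Most of that gap was PMAIP1. Without it the values were 10.8 ± 0.786, 13.2 ± 0.690 and 12.3 ± 0.540, and the SLO range (11.7 to 12.8) touched that of VEH (10.3 to 11.7). BID made up 47.3 ± 3.63% of the BH3-only sum in VEH, and PMAIP1 39.7 ± 2.17%. In SLO ½ BID supplied 31.8 ± 0.545% and PMAIP1 54.9 ± 0.592%. In SLO they supplied 22.8 ± 0.715% and 56.0 ± 0.951%, and BCL2L11 15.0 ± 0.150%, against 9.71 ± 1.03% in VEH. These are sums of RNA levels and were not compared with a test.

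Ordered by mean TPM, VEH ran MCL1 (295), BCL2L1 (172), BAX (73.2), BID (42.8), BAK1 (40.3), PMAIP1 (35.7), BCL2L2 (33.1), BCL2L11 (8.74), BCL2 (3.09) and BBC3 (2.98). Neighbours whose libraries overlapped, and so did not differ beyond their spread, were BID and BAK1, PMAIP1 and BCL2L2, and BCL2 and BBC3. In SLO ½ PMAIP1 (87.6) stood above BAX (79.4) as the third gene, and only BID (50.8) and BAK1 (50.4) overlapped. In SLO the order was MCL1 (341), BCL2L1 (234), BAX (101), PMAIP1 (95.6), BAK1 (56.2), BID (38.9), BCL2L2 (34.4), BCL2L11 (25.5), BBC3 (10.6) and BCL2 (3.34), with no overlap between neighbours. BCL2 was thus the lowest of the 10 in both treated groups.

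Start-site windows were looked at because the BH3-only genes made the largest moves. RefSeq sequence on GRCh38.p14 was matched for 8 of the 10 genes, MCL1 and BCL2L2 being the others. The 250 bases upstream of the start are shown for PMAIP1, which was near its full rise in SLO ½, and for BCL2L11, which stepped up with dose. PMAIP1 is at chr18:59899746-59899995 and BCL2L11 at chr2:111120664-111120913, both on the plus strand and 5′ to 3′, and neither window enters an annotated exon of its gene. The BCL2L11 window lies inside the listed gene, after an earlier start. Capitals mark GC boxes (GGGCGG), the CCAAT box (CCAAT) and the forkhead motif (TGTTTAC), each on either strand.
PMAIP1: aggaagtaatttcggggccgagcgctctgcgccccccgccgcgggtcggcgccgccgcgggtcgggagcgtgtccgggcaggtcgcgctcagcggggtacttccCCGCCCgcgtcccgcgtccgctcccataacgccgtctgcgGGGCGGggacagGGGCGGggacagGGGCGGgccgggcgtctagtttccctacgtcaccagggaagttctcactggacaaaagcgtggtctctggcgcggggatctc
BCL2L11: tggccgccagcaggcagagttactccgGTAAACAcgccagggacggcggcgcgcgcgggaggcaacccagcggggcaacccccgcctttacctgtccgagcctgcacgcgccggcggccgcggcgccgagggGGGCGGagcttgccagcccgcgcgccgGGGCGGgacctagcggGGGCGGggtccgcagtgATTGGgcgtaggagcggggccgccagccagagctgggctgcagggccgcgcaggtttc
PMAIP1 has 4 GC boxes and 72.8% G and C. BCL2L11 has 3 GC boxes, 1 CCAAT box, 1 forkhead motif and 76.8% G and C.

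Among 35116 windows of this length, 42.6% hold a GC box, 32% a CCAAT box and 2.98% the forkhead motif, and of the 8 matched genes 5, 4 and 1 do. The E-box CACGTG occurs in 6.34% of all windows and in 3 of the 8, with 4 copies before BAX and 1 each before BID and BBC3. The TATA box (TATAAA, 10.7% of windows), the CRE (TGACGTCA, 1.65%) and the element TGATGNAA (3.14%) were in none of the 8. The BBC3 window (chr19:47232668-47232917, minus strand) holds 1 CCAAT box and 1 E-box, and 99 of its bases lie in an annotated exon, while the windows of BCL2 and BCL2L1 lie in exons over all 250 bases. A match says only that the letters are present. Only exact letters were searched, so near matches were not counted and an absent match does not exclude a variant of the motif.

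Of 13 further BCL2 family genes 7 passed the filter, and BCL2A1, BCL2L10, BIK, HRK, BCL2L14 and BCL2L15 had 0 to 18 counts per library. In SLO 2 of the 7 rose and 2 fell, with a median of -0.014, and in SLO ½ 2 rose and 2 fell, with a median of 0.084. For this list and those that follow, the shares over all tested genes are again 32.9% up and 32.1% down in SLO, and 26.7% and 25.3% in SLO ½. BMF, a BH3-only gene whose protein is tethered to the cytoskeleton, had 4.25, 4.07 and 3.13 CPM in VEH, 6.87, 7.38 and 7.01 in SLO ½, and 13.5, 12.7 and 14.3 in SLO. Like BCL2L11 it rose at each dose, by 0.91 in SLO ½ (adjusted p = 1.71e-06), 1.83 in SLO (SE 0.121, adjusted p = 8.51e-14) and 0.93 between them (adjusted p = 3.81e-08). BNIP3 and BNIP3L, receptors for the removal of mitochondria, changed by -0.60 (adjusted p = 3.09e-13) and -0.34 (1.45e-08) in SLO, and by -0.36 and -0.32 in SLO ½ (1.85e-08 and 8.56e-08), so both fell at each dose. BCL2L13 rose by 0.28 in SLO (adjusted p = 2.16e-05) and by 0.15 in SLO ½ (0.0165), while BAD (-0.14), BOK (-0.014) and BCL2L12 (0.021) were not called in SLO. With 1 library left out the filter was set again, so others of the 13 genes could enter these counts. The count of rises in SLO was then 4 without any 1 of the VEH libraries or SLO replicate 3. That in SLO ½ was 4 without VEH replicate 1, SLO ½ replicate 1 or SLO ½ replicate 3. With DESeq2, and with limma on log2(TPM + 1), the count of rises in SLO ½ was 1 among the same 7 genes. With no expression filter, which also let in more of the 13, the count of rises in SLO was 4.

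Downstream of the membrane, 5 of 18 genes of caspase activation and its brakes rose in SLO, 4 fell and 9 were not called (median -0.0020), and in SLO ½ 5 rose, 3 fell and 10 were not called (median 0.021). Over all tested genes 32.9% rose and 32.1% fell in SLO, and 26.7% and 25.3% in SLO ½, so these counts are at or near the background. With library size only, 8 of the 18 rose in SLO. BIRC2, an inhibitor of apoptosis protein, was at 116 to 125 CPM for VEH, 210 to 214 for SLO ½ and 202 to 220 for SLO, a rise of 0.80 at both doses (adjusted p = 2.25e-15 and 7.16e-16). Its relative BIRC3 rose more in SLO ½ (1.92, adjusted p = 2.15e-16) than in SLO (1.33, 1.16e-12), and that difference was itself called (-0.59, adjusted p = 5.25e-07). BIRC3 and BID were thus both lower in SLO than in SLO ½, where BCL2L11 and BBC3 were higher in SLO.

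Of 10 mitochondrial membrane partners, 7 fell and 2 rose in SLO (median -0.28), and 5 fell and none rose in SLO ½ (median -0.12), 0 also in edgeR at an unadjusted p below 0.05 and in DESeq2. Over all tested genes 32.1% fell and 32.9% rose in SLO, and 25.3% and 26.7% in SLO ½. VDAC1, the channel of the outer membrane, fell at both doses, with log2 changes of -0.21 in SLO ½ (adjusted p = 5.39e-05) and -0.60 in SLO (1.53e-13). The fusion gene MFN1 also fell, at -0.42 and -0.50 (adjusted p = 3.82e-09 and 5.38e-11), as did GHITM, at -0.14 and -0.36 (0.00484 and 8.04e-09). The 2 rises in SLO became 1 without VEH replicate 1 or SLO replicate 3 and 0 without SLO replicate 1, and were 1 with DESeq2, with no expression filter and with limma on log2(TPM + 1). The 5 falls in SLO ½ were 8 with limma on log2(TPM + 1), and 1 gene rose there with library size only. In these same libraries, the share of mitochondrial transcripts was higher in SLO than in VEH, and its part in these values was not tested.

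The list of transcription factors reported to act on BH3-only genes, with regulators such as the p53 ligase MDM2, had 5 rises and 4 falls among 10 genes in SLO (median 0.046) and 4 and 5 in SLO ½ (median -0.059). MDM2 was at 156 to 175 CPM for VEH, 326 to 355 for SLO ½ and 417 to 427 for SLO, a rise of 1.03 (adjusted p = 1.87e-17) and 1.36 (9.58e-21). FOXO1, a forkhead factor, had 5.45 to 7.78 CPM for VEH, 8.87 to 9.89 for SLO ½ and 14.5 to 16.9 for SLO, and rose by 0.53 (adjusted p = 0.000468) and 1.24 (6.64e-11). FOXO3, the other forkhead factor listed, was higher in level and did not rise. It had 51.0 to 53.6 CPM for VEH, 39.7 to 43.9 for SLO ½ and 49.5 to 50.9 for SLO. Its changes were -0.31 (adjusted p = 1.26e-05) and -0.056 (0.358). ATF4, the main factor of the integrated stress response, fell, with changes of -0.13 (adjusted p = 0.0124) and -0.41 (1.07e-09). The 4 rises in SLO ½ became 2 without VEH replicate 2, VEH replicate 3, SLO ½ replicate 1 or SLO ½ replicate 3, and also with DESeq2, with no expression filter and with limma on log2(TPM + 1).

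Since MCL1 and NOXA proteins are turned over by the proteasome, 8 ubiquitin enzymes that act on them were also read. In SLO 5 fell and 1 rose (median -0.17), and in SLO ½ 6 fell and 1 rose (median -0.20). The list mixes enzymes that add ubiquitin with enzymes that remove it. Among the latter, USP9X changed by -0.32 in SLO ½ and -0.25 in SLO, and USP13 by -0.48 and -0.21. The counts and medians therefore give no direction for protein turnover. HUWE1, a ligase for MCL1, fell, with changes of -0.63 in SLO ½ (adjusted p = 3.58e-10) and -0.59 in SLO (5.43e-10), and so did CUL5, at -0.21 and -0.26 (6.01e-05 and 2.01e-06). FBXW7, another ligase for MCL1, was the gene that rose, by 0.23 (adjusted p = 0.00254) and 0.40 (1.56e-06), though limma on log2(TPM + 1) called 0 rises in SLO ½. Protein levels were not measured here.

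**Figure D4:**
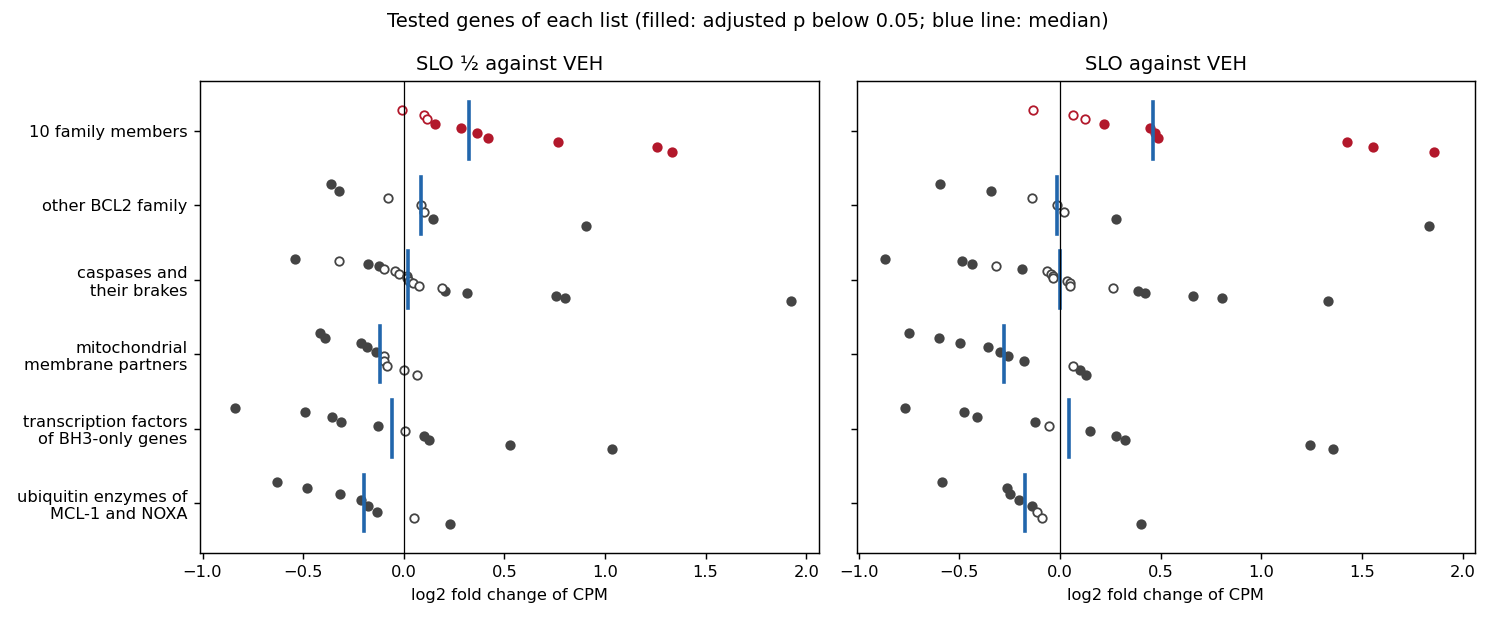
Log2 fold change of CPM (horizontal axis) of every tested gene of the 10 family members and of the 5 related lists, for SLO ½ and SLO against VEH, with filled points for adjusted p below 0.05 and a blue line at each median. The members had medians of 0.32 and 0.46, and the mitochondrial membrane partners of -0.12 and -0.28.

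Over the 9 libraries, the genes whose log2 CPM followed PMAIP1 most closely were TRIM22 (Pearson r = 0.998), RND3 (0.996), CRYAB (0.996), FAS (0.995) and B2M (0.995). Mean CPM in VEH, SLO ½ and SLO was 6.17, 38.9 and 42.5 for TRIM22 and 4.0, 19.5 and 22.9 for the death receptor gene FAS. Such values are common here, with 609 genes at r over 0.95, and all 9 points share the split between VEH and treated cells.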

How the data were processed

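Polyadenylated RNA of 9 libraries was analysed, 3 each of VEH, SLO ½ and SLO, grouped by their labels. The authors trimmed reads with Trimmomatic 0.38, aligned them with STAR 2.7.1a to GRCh38 and deposited whole-number counts per gene and strand from uniquely placed reads, without normalization. The authors also deposited TPM, scaled for length and depth. Lines without a gene were left out: 0.883 to 0.984% of reads were unmapped, 7.16 to 8.52% placed in several positions, 5.54 to 8.38% outside genes and 3.03 to 3.26% ambiguous. Strand was used, so antisense neighbours such as ABALON at BCL2L1 do not share counts; same-strand exon sharing was 5.27% for MCL1 and 2.39% for BBC3.

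Counts were tested with edgeR 4.0.16 in R 4.3.3 (filterByExpr, TMM scaling of 0.968 to 1.035, quasi-likelihood fit with 3 groups, all 9 libraries), with Benjamini-Hochberg adjustment over 14727 genes and calls at 0.05. CPM are TMM-scaled. Levels of different genes were compared in TPM. The code was tested on simulated data. Replicates differed beyond sampling noise (chi-square per degree of freedom 1.77 to 4.06), so no library was counted as a repeat. Alternatives were DESeq2 1.42.0, its size factors within edgeR, no scaling beyond library size, other filters, only the 2 groups compared, a replicate block, limma 3.58.1 on log2(TPM + 1) or log2(TPM + 0.1), and each library left out.

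The members, lists and tests were chosen with earlier results of these data known. Named genes are the 10 members, all tested genes of the further BCL2 family, from each other list the 3 genes of smallest p (SLO against VEH), BCL2L2-PABPN1, and the 5 genes most correlated with the member of smallest p. A gene this would name, and a marker sum, are not reported here. The motifs, the sequences shown, and the further named genes USP9X, USP13 and FOXO3 were picked after values were seen. In an exact permutation test 3 libraries against 3 cannot go below p = 0.1, so single genes rest on the spread estimated over all genes.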

Additional observations from a re-analysis of the deposited data

Results flagged for a closer look

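For 5 of the 10 genes the effect of treatment differed between the doses in a direct test of SLO against SLO ½, from the same edgeR fit. The log2 difference was 0.23 for MCL1, 0.32 for BAX, 0.79 for BCL2L11 and 0.60 for BBC3, each higher in SLO, and -0.42 for BID, lower in SLO, and all 3 SLO libraries lay beyond all 3 SLO ½ libraries for each. Over all tested genes 20.8% were called higher and 20.3% lower in SLO than in SLO ½, and 51.0% had CPM ranges apart, so 5 of 10 is near the background. Groups of 3 are too small to test whether a library stands apart. Leaving out 1 at a time shows only how far a value moves.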

How the results depend on the processing

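Of 480 values of the 30 member changes under 16 alternatives each, 456 kept their direction and their side of the threshold, 9 lost a call, 8 gained 1 and 7 changed sign. The count of members that fell in SLO against VEH was 1 instead of 0 with no expression filter, the gene being BID (-0.16, adjusted p = 0.048), and ranged from 0 to 1 when 1 library was left out. MCL1 in SLO ½ against VEH was 0.044 with library size only, 0.013 with at least 10 counts in every library and 0.00017 with only the 2 groups compared, and ran from -0.026 to 0.0029 with 1 library left out. SLO against SLO ½ ran from -0.080 to 0.079 for BCL2 and from -0.073 to 0.021 for BCL2L2 with 1 library left out, and none of these was called. BID in SLO ½ lost its call with limma on TPM of every gene above 0 (adjusted p = 0.0766). The cause of these shifts was not tested. Shares of raw counts, which are not scaled for length, were 1.41, 1.41 and 1.27% for BCL2 in VEH, SLO ½ and SLO, 26.2, 32.1 and 29.6% for BCL2L1, 5.82, 5.72 and 5.03% for BCL2L2, and 66.6, 60.8 and 64.1% for MCL1. Ordered by CPM, which also lacks length scaling, 4 of the 10 genes in SLO ½ and 5 in SLO kept their TPM rank. With library size only, the median of all genes moved to 0.089 (SLO) and 0.065 (SLO ½). Of 480 counts of calls in the 5 related lists, 72 changed by over 1.5 times.

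A replicate block, treating equal numbers as paired, called 7 members up and 0 down at each dose against VEH. Between doses it called 4 members up and 1 down. Over all tested genes, the same fit called 4877 up and 4745 down when SLO was set against VEH. With SLO ½ set against VEH, 3987 genes were up, beside 3762 down. For the step between doses, 3114 genes were up, beside 3048 down. Deviations from the group mean correlated at 0.0028 to 0.087 between same-numbered libraries and at -0.062 to 0.037 between others. The own number was best in 11 of 18 comparisons, each made among the 3 libraries of another group. All correlations of same-numbered libraries were positive, but they are small and the ranges overlap. Whether equal numbers mark a weak pairing is not settled by these values. Depth limits BBC3 and BCL2 most, as they had the fewest counts.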
